A study of Mus musculus with 5 samples.

Results

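CpG-poor promoters outside the odorant and pheromone receptor families were examined for Pcgf6 ChIP-seq signal in CCE ESCs. A promoter was counted as CpG-poor where the 500 bp on each side of its transcription start site (TSS) held less than 0.4 of the CpG dinucleotides that its C and G content predicts (CpG observed/expected). Of 22359 protein-coding promoters of the mm9 genome, 9000 met this limit, 1431 of these belonged to genes whose symbols begin with Olfr, Vmn1r or Vmn2r, and the remaining 7569 (33.9% of all promoters) are described here. CCE is an established mouse ESC line, grown here in medium with serum and LIF, kept below passage 15, and carrying no allele or treatment that the labels name. Its chromatin was fixed with disuccinimidyl glutarate and paraformaldehyde, which also links proteins that touch DNA only through partners, and was pulled down with an antibody against Pcgf6 from Santa Cruz or from Abcam (2 files each) or sequenced without antibody as the input (1 file). The question the series was made to answer was which regions of the ESC genome Pcgf6 occupies. No cells lacking Pcgf6 and no unrelated antibody were analysed here, so a ratio to the input does not separate Pcgf6 from other DNA that an antibody pulls down.

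Pcgf6 is a RING finger protein of the Polycomb group that takes part in a variant Polycomb repressive complex 1, together with Rnf2, L3mbtl2 and the DNA-binding pairs Mga-Max and E2f6-Tfdp1. Mga and Max recognise an E-box (CACGTG), and E2f6 recognises an E2F site (TTCCCGC, or GCGGGAA on the other strand). CpG-rich promoters are mostly unmethylated and are where Polycomb complexes are best known to sit in ESCs, whereas CpG-poor promoters are usually methylated unless active and belong for the most part to genes of single tissues, such as keratins, defensins, liver enzymes and immune receptors. They also include those of several ESC genes, among them Nanog and Pou5f1.

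The depth of the files sets what can be seen. The input held 22877031 fragments, the Santa Cruz files 2289903 and 2299739, and the Abcam files 2761443 and 2850363. The 2 files of an antibody were largely the same fragments, shifted by 1 or 15 positions (87.9% of Santa Cruz replicate 1 and 88.1% of Abcam replicate 1 were found in replicate 2). Nothing in the labels says that they came from separate cultures. They differed by less than the sampling noise (chi-square per degree of freedom over 10 kb windows 0.12 and 0.132, against 1.01 between antibodies). Each antibody was therefore counted as 1 sample, with 2552875 fragments for Santa Cruz and 3146421 for Abcam against 22371645 in the input. A CpG-poor promoter held a median of 5 Santa Cruz, 6 Abcam and 48 input fragments within 2 kb of its TSS, and a CpG-rich promoter (observed/expected of 0.6 or more) held 8, 11 and 81. P-values and intervals below cover counting error only and compare the fragments of libraries, not conditions. Both antibodies are compared with the same input, so their ratios are not independent of each other.

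The sequences at the few CpG-poor promoters with the clearest signal show what kind of DNA lay under it. For 5 of the 8 members past the threshold, the 300 bp within 2 kb of the TSS that held most ChIP fragments (UTRs and exons of noncoding transcripts left out) are given on the strand of the gene, with every CpG in capitals. They were read from the mm9 genome. The position of each window was chosen by the ChIP fragments in it, so the fragments in it are no test.
Prr19, chr7:26086498-26086797, plus strand, first intron: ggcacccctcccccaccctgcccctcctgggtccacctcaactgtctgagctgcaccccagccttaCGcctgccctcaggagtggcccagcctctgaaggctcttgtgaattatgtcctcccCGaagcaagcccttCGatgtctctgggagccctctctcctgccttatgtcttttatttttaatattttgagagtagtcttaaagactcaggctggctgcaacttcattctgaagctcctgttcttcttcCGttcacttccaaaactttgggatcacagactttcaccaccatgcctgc
Gpat2, chr2:127250625-127250924, plus strand, just upstream of the TSS: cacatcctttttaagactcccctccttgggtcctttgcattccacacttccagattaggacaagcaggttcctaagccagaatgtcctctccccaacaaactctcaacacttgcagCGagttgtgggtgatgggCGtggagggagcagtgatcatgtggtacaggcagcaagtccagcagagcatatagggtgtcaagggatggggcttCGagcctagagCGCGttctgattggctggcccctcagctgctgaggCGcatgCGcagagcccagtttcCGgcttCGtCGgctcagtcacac
Rad21l, chr2:151495919-151496218, minus strand, upstream and outside any annotated transcript: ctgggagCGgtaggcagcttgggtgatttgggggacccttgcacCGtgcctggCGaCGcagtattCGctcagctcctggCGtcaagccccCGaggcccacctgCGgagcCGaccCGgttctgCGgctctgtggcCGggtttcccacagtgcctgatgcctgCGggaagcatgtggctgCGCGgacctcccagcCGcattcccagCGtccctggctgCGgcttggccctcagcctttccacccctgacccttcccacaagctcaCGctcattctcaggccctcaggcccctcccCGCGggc
Hoga1, chr19:42119762-42120061, plus strand, upstream of the TSS: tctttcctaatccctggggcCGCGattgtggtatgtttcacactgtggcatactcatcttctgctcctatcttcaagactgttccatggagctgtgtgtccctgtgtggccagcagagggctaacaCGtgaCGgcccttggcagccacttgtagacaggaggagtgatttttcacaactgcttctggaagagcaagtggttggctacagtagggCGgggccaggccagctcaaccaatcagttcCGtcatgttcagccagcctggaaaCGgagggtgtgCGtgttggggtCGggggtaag
4930415F15Rik, chr11:11362421-11362720, plus strand, next to the start of Zpbp on the other strand: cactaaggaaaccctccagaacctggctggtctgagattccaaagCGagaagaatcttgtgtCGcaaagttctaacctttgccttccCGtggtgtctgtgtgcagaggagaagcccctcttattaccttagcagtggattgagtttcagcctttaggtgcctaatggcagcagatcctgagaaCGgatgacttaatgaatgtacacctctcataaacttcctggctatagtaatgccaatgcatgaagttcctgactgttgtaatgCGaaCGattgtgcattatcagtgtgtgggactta
The Rad21l window held 21 CpGs, an observed/expected ratio of 0.603 and a GC content of 68.7%, although the 1 kb around the annotated TSS held 5 CpGs at a GC content of 28.7%. The Gpat2 window held 10 CpGs (0.425), the Hoga1 window 9 (0.398), the 4930415F15Rik window 6 (0.379) and the Prr19 window 4 (0.206). At Prr19 the 300 bp with most ChIP fragments overlapped the first exon and are not printed; they held 14 CpGs (0.461) at a GC content of 63.7%, with 9 Santa Cruz and 18 Abcam fragments against 9 and 10 in the printed window. A CACGTG was found only in the Hoga1 window and a TTCCCGC on either strand only in the Rad21l window, of these 5.

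As a class, CpG-poor promoters lay below the input with both antibodies, except on the GC-scaled measure given in the next paragraph. Of the 7569 members, 5746 held at least 20 input fragments and were compared one by one, and 1823 did not. Over the 5746, the depth within 2 kb of the TSS, as a share of the summed depth of the file and divided by the same in the input, had a median of 0.851 and 0.855 in Santa Cruz replicates 1 and 2, and 0.87 and 0.866 in Abcam replicates 1 and 2. The quartiles were 0.597 and 1.17 in Santa Cruz replicate 1, and 0.625 and 1.17 in Abcam replicate 1. In each of the 4 files fewer members lay above the input than below it (36.3% to 37.5% above). CpG-rich promoters had medians of 0.885 and 0.898 with Santa Cruz and 0.949 and 0.95 with Abcam.

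Summed over the 5746 members, the ChIP/input ratio of fragments was 0.868 with Santa Cruz (exact Clopper-Pearson 95% interval 0.859 to 0.878) and 0.884 with Abcam (0.876 to 0.893). Over all 7569 members the ratios were 0.892 (0.883 to 0.902) and 0.906 (0.897 to 0.915). Relative to CpG-rich promoters, the CpG-poor class was lower by a factor of 0.915 with Santa Cruz (interval from the counting error of the 4 sums 0.903 to 0.927) and 0.874 with Abcam (0.863 to 0.884). Against intermediate promoters (observed/expected 0.4 to 0.6) the factors were 0.974 (0.957 to 0.991) and 0.925 (0.911 to 0.94). These factors count only promoters with at least 20 input fragments, 5746 of 7569 CpG-poor and 10081 of 10209 CpG-rich ones. With no minimum, the factors relative to CpG-rich promoters were 0.939 (0.927 to 0.951) and 0.894 (0.884 to 0.904). With at least 40 input fragments they were 0.88 (0.868 to 0.892) and 0.849 (0.839 to 0.86), so their size moved with the minimum. Ratios to the input also moved with base composition, which is taken up below. Each promoter was therefore also compared with DNA of its own GC content more than 5 kb from any protein-coding start. On this GC-scaled measure the 5746 members no longer lay below the input, at 1.0 with Santa Cruz (0.99 to 1.01) and 1.01 with Abcam (1.0 to 1.02). Over all 7569 members the GC-scaled ratios were 1.02 (1.01 to 1.03) and 1.03 (1.02 to 1.04). The 5746 stayed below CpG-rich promoters, GC-scaled, by factors of 0.853 (0.842 to 0.864) and 0.821 (0.812 to 0.831).

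Few single CpG-poor promoters passed the threshold. With a one-sided exact binomial test and Benjamini-Hochberg adjustment across the 19168 promoters with at least 20 input fragments, 5 of 5746 members had an adjusted p under 0.05 with Santa Cruz, where 0.689% of all promoters tested did, and 6 had one with Abcam, where 1.15% did. The members' shares were 0.087% and 0.104%. CpG-rich promoters passed in 116 and 195 of 10081 cases (1.15% and 1.93%), and intermediate promoters in 11 and 20 of 2941. The members tested held a median of 61 input fragments and the CpG-rich promoters 81, so the shares do not compare classes of equal power. Before adjustment, 164 members (2.85%) had p under 0.05 with Santa Cruz and 151 (2.63%) with Abcam. With the GC-scaled expectation, 11 members passed with Santa Cruz and 20 with Abcam, against 1.18% and 2.42% of all promoters.

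Within the CpG-poor range the ratio was highest at the lowest CpG content and lowest at an observed/expected of 0.2 to 0.3. From there it rose towards CpG-rich promoters, to 1.05 with Santa Cruz and 1.11 with Abcam at 1.0 to 1.1. With Abcam it was 0.893 at an observed/expected of 0.1 to 0.2, 0.886 at 0.2 to 0.3, 0.918 at 0.3 to 0.4, and then 0.94, 0.974, 0.988 and 1.01 in the next 4 steps of 0.1. With Santa Cruz the same steps gave 0.89, 0.869, 0.884, 0.892, 0.9, 0.917 and 0.954. The 1106 members with an observed/expected under 0.1 stood above the rest of the class, at 1.02 with Santa Cruz and 0.998 with Abcam, and the flanks of the same genes, 10 to 20 kb from the TSS, stood at 1.04 and 1.03. On the GC-scaled measure the step from 0.2 to 0.3 had the lowest Santa Cruz value, 1.0, and the Abcam values rose from 1.01 at 0.1 to 0.2 to 1.06 at 0.3 to 0.4, 1.11 at 0.4 to 0.5 and 1.23 at 0.7 to 0.8. The limit of 0.4 fell within a gradual change. The 770 members between 0.35 and 0.4 had ratios of 0.879 and 0.936, and the 736 promoters between 0.4 and 0.45 had 0.917 and 0.944.

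**Figure D1:**
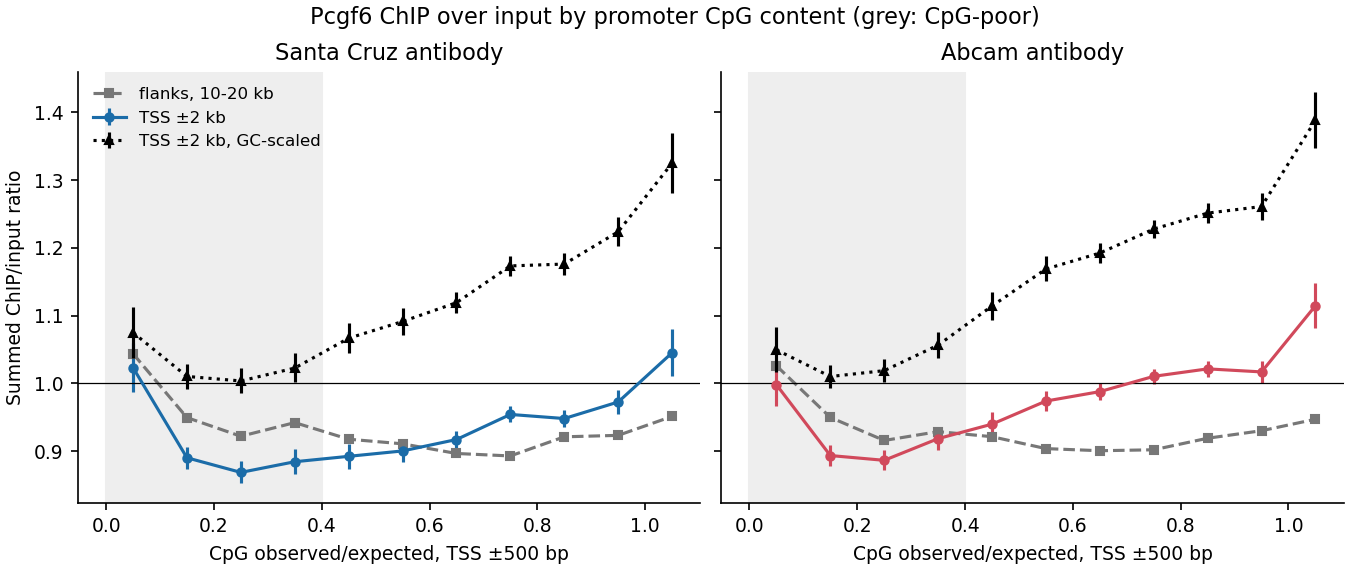
Summed ChIP/input ratio (vertical axis) by CpG observed/expected of the promoter (horizontal axis, steps of 0.1, receptor families left out) for the Santa Cruz and Abcam antibodies. Coloured circles are TSS ±2 kb, grey squares the flanks of the same genes, black triangles TSS ±2 kb relative to DNA of the same GC content; bars are 95% intervals of counting error. In the grey CpG-poor range the circles lie below the squares, and to the right of 0.6 they lie above them.

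Towards the TSS, the density at CpG-poor promoters rose in the ChIP libraries, but less than in the input. The density of fragments in the first 100 bp downstream of the TSS per kb and per 1000000 fragments of the library was 0.754 for the input, against 0.576 for Santa Cruz and 0.613 for Abcam. In the outermost 100 bp upstream the values were 0.465 for the input, 0.432 for Santa Cruz and 0.444 for Abcam. The input itself thus had a small peak at CpG-poor TSSs that the ChIP libraries had to a lesser degree. The density within 500 bp of the TSS over that at 1.5 to 2 kb was 1.25 for the input, 1.14 for Santa Cruz and 1.18 for Abcam, which relative to the input is 0.917 (0.89 to 0.944) and 0.95 (0.925 to 0.976). At CpG-rich promoters the Santa Cruz value relative to the input was 0.959 (0.94 to 0.978) and the Abcam value 1.06 (1.04 to 1.08). The Abcam library was therefore more concentrated than the input at CpG-rich TSSs and less concentrated at CpG-poor ones, and the Santa Cruz library was less concentrated at both.

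**Figure D2:**
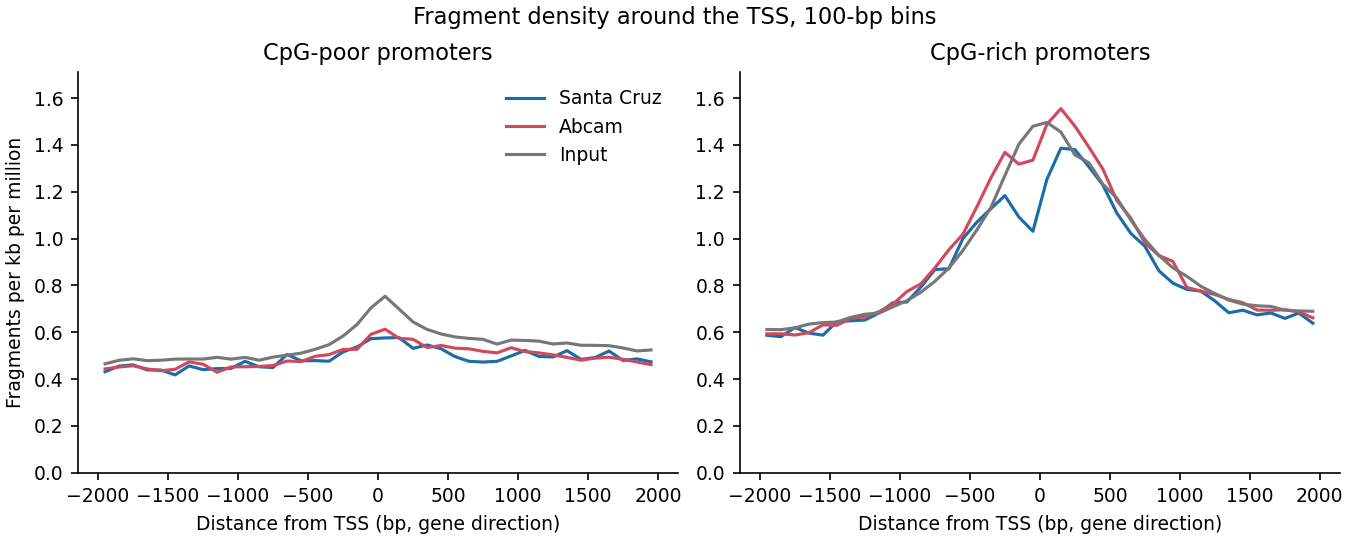
Fragments per kb per 1000000 fragments of the library (vertical axis) by distance from the TSS in the direction of the gene (horizontal axis, 100-bp bins), as the mean over 7569 CpG-poor and 10209 CpG-rich promoters. The lines are the Santa Cruz, Abcam and input libraries; at CpG-poor TSSs the input line (0.754 in the first 100 bp) lies above both ChIP lines.

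The flanks of the same genes gave a local comparison. At 10 to 20 kb from CpG-poor TSSs, more than 5 kb from any protein-coding start, the ratio was 0.946 with Santa Cruz and 0.939 with Abcam. The promoters stood at 0.943 of their flanks with Santa Cruz (0.932 to 0.955) and at 0.965 with Abcam (0.954 to 0.975). CpG-rich promoters stood above theirs, at 1.05 (1.04 to 1.05) and 1.11 (1.10 to 1.12), with flanks at 0.908 and 0.912. Intermediate promoters stood at 0.981 of theirs with Santa Cruz (0.966 to 0.997) and at 1.05 with Abcam (1.04 to 1.07). The 1431 receptor promoters of the same CpG range had flanks at 1.30 with Santa Cruz and 1.22 with Abcam. They did not stand below these flanks, at 1.02 (0.982 to 1.07) and 1.05 (1.005 to 1.09).

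Within the class, the ratio followed the GC content of the promoter. The 605 members with a GC content under 38% over the 4 kb had a summed ratio of 1.52 with Santa Cruz (1.44 to 1.61) and 1.45 with Abcam (1.37 to 1.52). The 409 members with 54% or more had 0.732 (0.706 to 0.758) and 0.79 (0.766 to 0.814), and the bins between lay in order. The flanks fell in the same order, in Santa Cruz from 1.32 to 0.81, in Abcam from 1.30 to 0.812. DNA more than 5 kb from any protein-coding start did so too. There, 4-kb tiles with a GC content below 35% had ratios of 1.62 and 1.61, and those of 54% or more had 0.765 and 0.792. Compared at like GC content, CpG-poor promoters were below CpG-rich ones in 5 of 6 bins with Santa Cruz and in all 6 with Abcam by an interval that leaves out 1. At 46 to 50% GC, where both classes were well filled (1769 and 3330 promoters), the factor was 0.878 (0.857 to 0.899) and 0.846 (0.828 to 0.864). At 38 to 42% with Santa Cruz it was 0.972 (0.899 to 1.05). The bin under 38% held only 22 CpG-rich promoters.

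**Figure D3:**
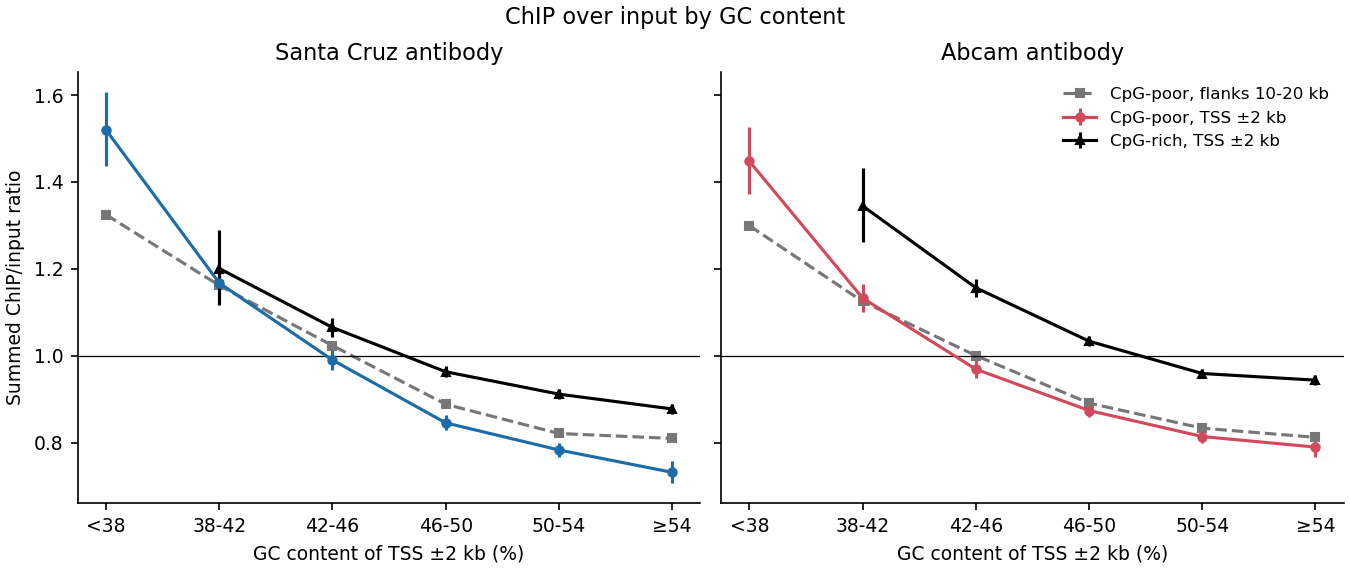
Summed ChIP/input ratio (vertical axis) by GC content of TSS ±2 kb (horizontal axis, 6 bins) for each antibody. Coloured circles are CpG-poor promoters, grey squares their flanks at 10 to 20 kb, black triangles CpG-rich promoters (bin under 38% not drawn, 22 promoters), with 95% intervals of counting error. All 3 fall with GC content, from 1.52 to 0.732 for CpG-poor promoters with Santa Cruz.

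A CpG-rich stretch nearby went with a higher ratio in Abcam, and in Santa Cruz only on the GC-scaled measure. Of the 7569 members, 696 (9.2%) had a 500-bp stretch with an observed/expected of 0.6 or more and a GC content above 50% within 2 kb of the TSS. Relative to the 6873 members without one, their ratio was 1.05 with Abcam (1.02 to 1.08) and 0.972 with Santa Cruz (0.942 to 1.0). GC-scaled, it was higher with both, by factors of 1.15 (1.12 to 1.18) and 1.08 (1.05 to 1.12), so that the direction with Santa Cruz depended on the scaling. Against their own flanks, members with a stretch stood at 1.06 with Abcam (1.03 to 1.09) and 0.977 with Santa Cruz (0.944 to 1.01), and those without at 0.952 (0.941 to 0.963) and 0.94 (0.928 to 0.952). The start of another protein-coding gene lay within 2 kb of 431 members, whose Santa Cruz ratio relative to the rest was 0.972 (0.931 to 1.01) and whose Abcam ratio was 1.01 (0.974 to 1.05).

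Members were compared by the sequence motifs they held. In the 1 kb around the TSS, searched on both strands, CACGTG was present in 11.3% of members, against 22.0% of CpG-rich and 16.8% of all promoters. The 859 members with CACGTG had a Santa Cruz ratio of 0.982 (0.951 to 1.01) and an Abcam ratio of 0.98 (0.953 to 1.01) relative to the 6710 without it. The variant CACATG was present in 49.0% of members and in 33.9% of all promoters. TTCCCGC was present in 251 members (3.32%) against 15.2% of all promoters, and CGNGGGCG, a GC-rich consensus shown by the study, in 156 (2.06%) against 26.7%. These last motifs and CACGTG all hold a CpG, which the choice of members limits, so that their lower shares are no finding. The members with TTCCCGC had a Santa Cruz ratio of 0.818 (0.776 to 0.861) and an Abcam ratio of 0.857 (0.818 to 0.898), below the class, and GC-scaled 0.977 (0.928 to 1.03) and 1.02 (0.97 to 1.06). Those with CGNGGGCG had 0.852 (0.799 to 0.907) and 0.874 (0.825 to 0.924), and GC-scaled 1.05 (0.982 to 1.11) and 1.06 (1.0 to 1.12). TATAAA was present in 45.6% of members and 32.0% of all promoters. A TATAA, which TATAAA contains, at 40 to 20 bp before the TSS on the strand of the gene, the place of a TATA box, was found in 7.65% of members and 1.34% of CpG-rich promoters, and the 579 members with one had a Santa Cruz ratio of 1.04 (0.993 to 1.08) and an Abcam ratio of 0.998 (0.96 to 1.04) relative to the rest.

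The members described one by one among the 8 past the threshold with either antibody are Prr19, Gpat2 and Rad21l with both, Hoga1, Krtap4-1 and 4930415F15Rik with Abcam, and Gm17266 with Santa Cruz. Prr19, Gpat2 and Rad21l are known from germ cells. Depths are given for each per 1000000 of the summed depth of the file.

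Prr19 (ENSMUSG00000058741.3), a factor of meiotic crossing over, starts at position 26086378 of chromosome 7 and had an observed/expected ratio of 0.386, near the limit. Its depth was 3.51 in the input, 11.7 and 13.0 in Santa Cruz replicates 1 and 2, and 11 and 12.1 in Abcam replicates 1 and 2. All 4 ChIP files lay more than 3-fold above the input. The fragments numbered 76 in the input, 28 with Santa Cruz and 30 with Abcam, which gave ratios of 3.23 (2.01 to 5.04, adjusted p = 0.00043 by the exact binomial test) and 2.81 (1.78 to 4.34, adjusted p = 0.00129). The signal was centred on the TSS: 20 of the 28 Santa Cruz and 23 of the 30 Abcam fragments lay within 500 bp, against 30 of 76 in the input.

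Gpat2 (ENSMUSG00000046338.3), a mitochondrial acyltransferase of the testis that takes part in piRNA production, starts at position 127250935 of chromosome 2 and had an observed/expected ratio of 0.384. Its depth was 3.96 in the input, 10.5 and 10 in the Santa Cruz files, and 11.3 and 10.7 in the Abcam files. The ratios of fragments were 2.46 (1.51 to 3.87, adjusted p = 0.031 by the exact binomial test) and 2.64 (1.71 to 3.97, adjusted p = 0.00134), from 89 input, 25 Santa Cruz and 33 Abcam fragments. Within 500 bp of the TSS the ratio was 4.97 with Santa Cruz and 4.98 with Abcam, from 17 of 25 and 21 of 33 fragments, against 30 of 89 in the input. The 300 bp printed above held 7 Santa Cruz, 13 Abcam and 9 input fragments.

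Rad21l (ENSMUSG00000074704.2), the kleisin subunit of a cohesin complex of meiotic cells, starts at position 151494269 of chromosome 2 in the annotation. Its depth was 1.41 in the input, 6.26 and 6.95 in the Santa Cruz files, and 5.49 and 5.39 in the Abcam files, so that all 4 ChIP files lay more than 3-fold above the input. The ratios were 4.52 (2.31 to 8.53, adjusted p = 0.00248 by the exact binomial test) and 3.67 (1.87 to 6.92, adjusted p = 0.0118), from 31, 16 and 16 fragments. The signal did not lie at the annotated TSS. Of the Santa Cruz fragments 15 of 16, and of the Abcam fragments 11 of 16, lay 1 to 2 kb upstream, where the CpG-rich sequence printed above was found, and 0 and 2 lay within 500 bp. The input was uneven in the same direction, with 22 of 31 fragments 1 to 2 kb upstream and 3 within 500 bp. GC-scaled, the adjusted p was 0.0263 with Santa Cruz and 0.0661 with Abcam.

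Hoga1 (ENSMUSG00000025176.8), an aldolase of hydroxyproline breakdown in mitochondria, starts at position 42120282 of chromosome 19. Its depth was 5.59 in the input, 6.65 and 6.40 in the Santa Cruz files, and 12.1 and 13.5 in the Abcam files. The ratio was 2.25 with Abcam (1.52 to 3.27, adjusted p = 0.00485 by the exact binomial test) and 1.17 with Santa Cruz (0.647 to 1.98, adjusted p = 1). The window with the CACGTG, upstream of the TSS, held 14 of the 38 Abcam, 6 of the 16 Santa Cruz and 11 of the 120 input fragments. The difference between the antibodies did not hold after adjustment over the promoters (p = 0.0281, adjusted p = 1, two-sided exact binomial test). Over all members tested, 0 differed between the antibodies at an adjusted p under 0.05 by this test and 219 (3.81%) at an unadjusted one.

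At 4930415F15Rik (ENSMUSG00000020191.4), a gene of unassigned function, 10 of 15 Abcam fragments lay 1 to 2 kb upstream of the TSS at position 11364271 of chromosome 11, against 16 of 32 in the input. There the start of Zpbp, which codes for a protein of the sperm acrosome, lies 159 bp from the middle of the printed window. Its depth was 1.35 in the input, 4.14 and 3.62 with Santa Cruz, and 4.59 and 4.25 with Abcam. The ratios were 3.33 with Abcam (1.68 to 6.34, adjusted p = 0.033 by the exact binomial test) and 2.46 with Santa Cruz (1.03 to 5.28, adjusted p = 0.819). The predicted gene Gm17266 held 7 of 16 Santa Cruz, 10 of 12 Abcam and 18 of 44 input fragments 1 to 2 kb upstream, and the 300 bp with most ChIP fragments, also there, held 19 CpGs at an observed/expected of 0.617. Its depth was 2.16 in the input, 5.70 and 5.30 with Santa Cruz, and 4.13 and 4.41 with Abcam. Its ratio was 3.19 with Santa Cruz (1.68 to 5.76, adjusted p = 0.0403 by the exact binomial test) and 1.94 with Abcam (0.932 to 3.74).

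Krtap4-1, a hair keratin-associated protein, had its fragments spread over the window, with 3 of 12 Abcam fragments within 500 bp of the TSS. It had depths of 0.954 in the input, 1.75 and 1.74 with Santa Cruz, and 2.90 and 2.97 with Abcam, and its ratio was 4.06 with Abcam (1.82 to 8.65, adjusted p = 0.033 by the exact binomial test) from 12 ChIP and 21 input fragments. The calls of Krtap4-1, 4930415F15Rik and Gm17266 were lost with the GC-scaled expectation (adjusted p = 0.0593, 0.165 and 0.194 by the exact binomial test) and with either file of the antibody left out. The GC-scaled ratios were 3.37, 2.36 and 2.35. With a file left out the ratios stayed near the full ones for 4930415F15Rik (2.95 and 3.30) and Gm17266 (3.10 and 3.12) and were 3.38 and 3.10 for Krtap4-1. Those of Prr19 and Gpat2 with both antibodies, Hoga1 with Abcam, and Rad21l with Santa Cruz were kept in both. The 2 files of an antibody hold largely the same fragments, so a call kept with a file left out is not an independent repeat.

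**Figure D4:**
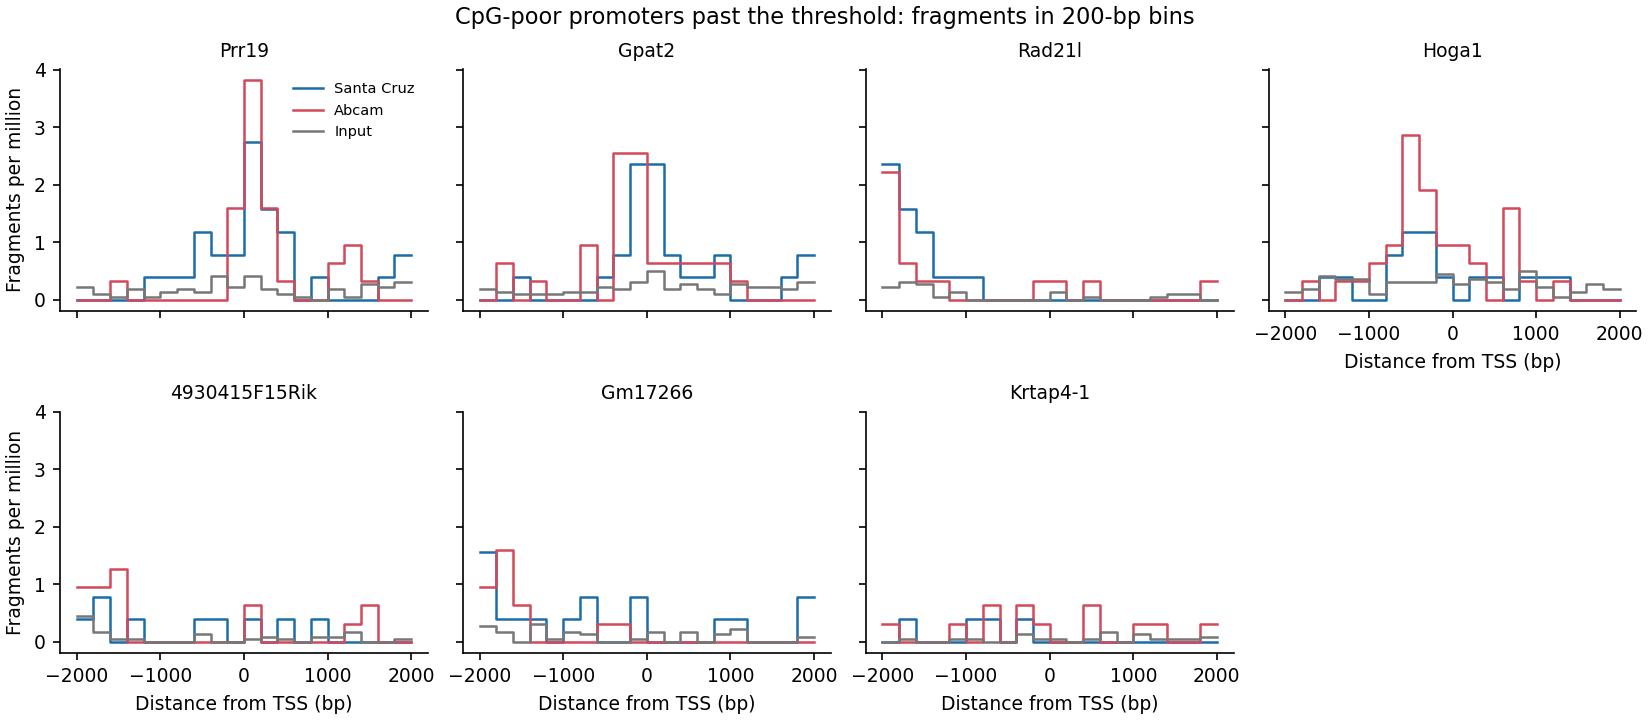
Fragments per 1000000 of the library (vertical axis) in 200-bp bins by distance from the TSS in the direction of the gene (horizontal axis) at the CpG-poor promoters past the threshold that are described, for the Santa Cruz, Abcam and input libraries. Prr19 and Gpat2 peak at the TSS, Hoga1 upstream of it in the Abcam line, and Rad21l at the upstream end of the window; Krtap4-1 shows no single peak.

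A larger number of members were high by depth alone. Of the 5746 members, 23 had a depth ratio of 2 or more in all 4 ChIP files (0.4%), where 1.02% of all promoters tested did, and CpG-rich promoters did so in 151 of 10081 cases. The files of an antibody hold largely the same fragments and share 1 input, so the 4 files are not 4 separate measurements. Of the 23, 4 were among the 8 past the threshold: Prr19, Gpat2, Rad21l and 4930415F15Rik. Their input was low, with 20 to 89 fragments and a median of 27, and 18 of the 23 had a GC content under 42%. At a minimum of 40 input fragments 3 remained. Among the 23 were Kcnj13, a potassium channel of epithelia, with a depth of 1.12 in the input, 3.49 and 3.91 with Santa Cruz, and 3.26 and 3.51 with Abcam, and Dcx, a microtubule protein of young neurons, with 0.943 in the input, 2.18 and 2.17 with Santa Cruz, and 2.99 and 3.25 with Abcam. Cyp7a1, the rate-limiting enzyme of bile acid synthesis, had 1.16, 2.62, 2.61, 2.47 and 3.08 in the same order, and Clk4, a kinase of splicing factors, had 2.90, 6.87, 6.87, 6.37 and 7.26. None of these last 4 passed the adjusted threshold with either antibody. Clk4 did so GC-scaled with Abcam. These genes were named after their values were seen.

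None of the listed pluripotency genes with a CpG-poor promoter passed the test. Of 21 pluripotency genes found in the annotation, 8 were CpG-poor (Nanog, Pou5f1, Dppa2, Dppa4, Gdf3, Lefty1, Lefty2 and Spp1) and 8 CpG-rich. Nanog, a homeodomain factor of pluripotent cells, had a depth of 5.83 in the input, 5.24 and 5.22 with Santa Cruz, and 6.49 and 5.61 with Abcam. All 5 values lay close together, and its ratios were 0.911 (0.472 to 1.62) and 1.08 (0.63 to 1.76). Pou5f1, which codes for Oct4, had 5.12 in the input, 3.35 and 2.92 with Santa Cruz, and 3.06 and 4.04 with Abcam, all 4 ChIP files below the input, with ratios of 0.615 (0.259 to 1.25) and 0.686 (0.333 to 1.27). The highest of the 8 was Spp1, the secreted phosphoprotein osteopontin, at 1.71 (0.738 to 3.55) and 1.39 (0.599 to 2.88). Dppa2 and Dppa4, neighbouring nuclear proteins of early embryos, had 1.12 and 0.987 with Santa Cruz and 0.908 and 0.801 with Abcam, and the signalling genes Lefty1, Lefty2 and Gdf3 lay between 0.548 and 1.26 with either. The 8 together had summed ratios of 0.888 (0.69 to 1.13) and 0.955 (0.765 to 1.18), close to those of the whole class. The upper bounds, such as 1.76 for Nanog with Abcam, mark the enrichment over 4 kb that this depth still allows.

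None of the 23 germline genes found in the annotation from a list of meiotic and piRNA genes (Ddx4, Dazl, Sycp1 and others) was CpG-poor: 18 were CpG-rich and 5 intermediate. The 16 genes of the 2-cell stage (Zscan4, Tdpoz, Usp17l and Dub families and Zfp352) were all CpG-poor, but all except Dub1a held fewer than 20 input fragments, and 5 of the Zscan4 copies and Tdpoz5 held none. Many are near-identical copies, whose reads may not map to one place; how such reads were treated is not given in the sources used here, and its part in the low input was not tested. Dub1a had ratios of 0.762 with Santa Cruz and 1.55 with Abcam.

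Gene families of single tissues differed in their summed ratios and in GC content. Bitter taste receptors (35 members, median GC 36.2%) had the highest summed ratios among groups with at least 10 members tested with Santa Cruz, 1.41 (1.18 to 1.68), with 1.28 (1.08 to 1.51) with Abcam, and killer cell lectin-like receptors (26 members, 37.0%) had 1.26 (0.988 to 1.6) and 1.34 (1.08 to 1.65). Keratins (36 members, 49.5%) had 0.724 (0.626 to 0.833) and 0.777 (0.684 to 0.879), and myosins and troponins (32 members, 49.4%) had 0.77 (0.665 to 0.887) and 0.787 (0.69 to 0.894). GC-scaled, these 4 groups had values of 1.12 and 1.02, 1.04 and 1.11, 0.897 and 0.952, and 0.912 and 0.923, each with an interval that held 1. The flanks of keratin genes were at 0.87 and 0.839 and those of bitter taste receptors at 1.21 and 1.2. Crystallins of the lens (12 members) had the lowest Santa Cruz value, 0.612 (0.468 to 0.789), against 0.815 (0.66 to 0.998) with Abcam. GC-scaled, the Santa Cruz value stayed low at 0.746 (0.579 to 0.961), and the Abcam value was 0.983 (0.803 to 1.2).

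Keratin-associated proteins with Santa Cruz, CpG-poor zinc finger genes with Abcam, and X- and Y-linked testis families with both antibodies had intervals above 1 on both scales. The 45 keratin-associated proteins had 1.31 with Santa Cruz (1.11 to 1.53) and 1.11 with Abcam (0.951 to 1.29), and GC-scaled 1.29 (1.11 to 1.51) and 1.10 (0.949 to 1.28). Within this group Krtap8-1 was highest, with depth ratios of 1.58 and 2.10 in the Santa Cruz files and 4.12 and 4.23 in the Abcam files, and Krtap11-1 lowest, between 0.251 and 0.488 in the 4 files. The 100 members named Zfp had 1.15 with Abcam (1.05 to 1.25) and 0.981 with Santa Cruz (0.881 to 1.09), and GC-scaled 1.21 (1.11 to 1.33) and 1.04 (0.933 to 1.15). The 52 members of X- and Y-linked testis families, of which 46 held fewer than 20 input fragments, had a Santa Cruz value of 1.37 (1.01 to 1.83) and an Abcam value of 1.34 (1.01 to 1.76), and GC-scaled 1.46 (1.09 to 1.95) and 1.44 (1.1 to 1.88). Against their own flanks, keratin-associated proteins stood at 1.25 with Santa Cruz (1.03 to 1.52). The Zfp members stood at 1.11 with Abcam (0.999 to 1.23). The X- and Y-linked testis families stood at 1.15 with Santa Cruz (0.814 to 1.63) and 1.10 with Abcam (0.802 to 1.51). The flank intervals of the Zfp members and of the testis families thus held 1. Intervals are given for 35 groups and were not adjusted for their number. The groups are counted here by their summed fragments, and none had more than 1 member past the threshold with any single antibody.

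Liver and immune groups varied around the values of the class (0.892 and 0.906). UDP-glucuronosyltransferases and sulfotransferases (35 members) had 1.14 (0.928 to 1.39) and 1.2 (1.0 to 1.44), and GC-scaled 1.09 (0.892 to 1.33) and 1.15 (0.967 to 1.38). Type I interferons (15 members, 6 with at least 20 input fragments) had 1.27 (0.915 to 1.73) and 1.47 (1.11 to 1.92), and GC-scaled 1.09 (0.799 to 1.47) and 1.26 (0.972 to 1.64). The 84 cytochrome P450 genes had 0.921 (0.819 to 1.03) and 0.939 (0.844 to 1.04), from Cyp2a22, with depth ratios of 0.519 and 0 in the Santa Cruz files and 0 and 0.417 in the Abcam files, to Cyp2j9, with 4.0 and 3.98 in the Santa Cruz files and 0.995 and 0.964 in the Abcam files. Serpins (56 members) had 1.08 (0.942 to 1.23) and 0.911 (0.797 to 1.04), and Serpinb1b, a protease inhibitor, had depth ratios of 0.182 or less in all 4 files. Interleukins and their receptors (63 members) had 0.831 (0.744 to 0.927) and 0.885 (0.802 to 0.974), chemokines (28 members) 1.0 (0.843 to 1.19) and 0.952 (0.81 to 1.11), and the 52 defensins 1.16 (0.995 to 1.34) and 0.936 (0.803 to 1.09). Oocyte genes (31 members) had 0.974 (0.802 to 1.17) and 1.06 (0.894 to 1.25), with Oosp1, a secreted oocyte protein, at 1.21 and 1.21 in the Santa Cruz files and 3.07 and 2.63 in the Abcam files. The 2170 predicted genes named Gm or Rik had 0.943 (0.921 to 0.966) and 0.945 (0.925 to 0.966).

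**Figure D5:**
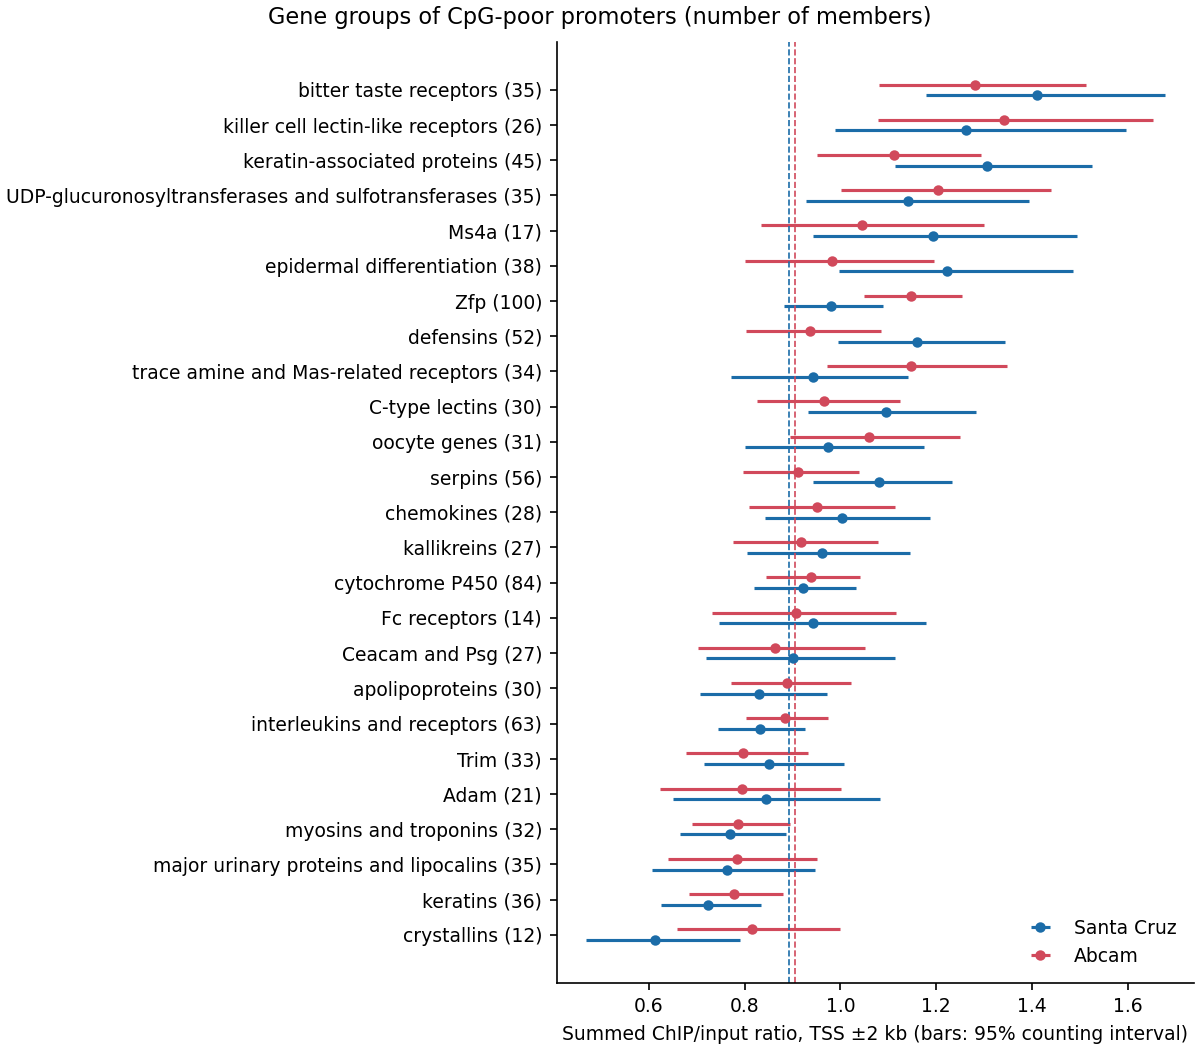
Summed ChIP/input ratio within 2 kb of the TSS (horizontal axis) for the gene groups with at least 10 members tested (rows, number of members in brackets), for Santa Cruz and Abcam, with 95% intervals of counting error. Dashed lines mark all CpG-poor promoters (0.892 and 0.906); bitter taste receptors lie at the top (1.41 with Santa Cruz) and keratins (0.724) and crystallins (0.612) at the bottom.

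The ends of the class in input depth lay apart. The 5 members with most input fragments (Gm11735, Cd244, Gapdh, Slc27a1 and Il17rc, 152 to 252 fragments) had Santa Cruz ratios of 0.558 to 1.15, and Abcam ratios of 0.498 to 0.965. Gapdh, a glycolytic enzyme active in ESCs, had a depth of 6.63 in the input, 4.59 and 4.60 with Santa Cruz, and 5.37 and 5.57 with Abcam, all ChIP files below the input. Gapdh, Slc27a1 and Il17rc had a CpG-rich stretch within 2 kb of the TSS, and Gm11735 and Cd244 had none. The 1823 members under 20 input fragments, which entered no test, had summed ratios of 1.64 (1.57 to 1.72) and 1.58 (1.51 to 1.65). They had a median GC content of 41.1%, against 46.7% for those tested, 578 of them held no input fragment, and they were chosen here by low input counts, which raises a ratio to that input by construction. Of the 467 members on chromosome X, 315 were under the minimum. At the limit of the rule, the last members inside 0.4 (1700084J12Rik, Gm10155 and Trpt1) had mean depth ratios over the 4 files of 1.02, 0.782 and 0.99, and the first outside it (Cplx3, Rbpjl and Rhoj) had 0.906, 0.69 and 1.04.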

How the data were processed

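Pcgf6 ChIP-seq and input libraries of CCE ESCs were analysed from the coverage signal that the authors deposited, which gives at each mm9 position how many reads, each lengthened to 300 bp, lie over it, neither scaled nor divided by the input. The submitters' processing notes name Bowtie (0.1.2.7). Mapping filters are not given in the sources used here, so CpG-poor repeats and gene copies may be under-covered. The study called peaks with MACS, and no peak list was used here.

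Fragments were recovered from rises and falls of the depth 300 bp apart (at most 0.0238% of falls were left without a rise), the 2 files of an antibody were joined with shared fragments counted once, and 1 fragment was kept per position. Promoters were taken from GENCODE on NCBIM37 with 1 TSS per gene, the one used by the largest number of its coding transcripts. Depth ratios used the depth sum of each file, and fragment ratios the library totals. Tests were one-sided exact binomial tests with Benjamini-Hochberg adjustment over 19168 promoters. The GC-scaled expectation, chosen after seeing the data, used 4-kb autosomal tiles more than 5 kb from any protein-coding start, in 1% bins from 34% to 54%. Steps were tested on simulated data.

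The members and gene lists were chosen with earlier results of these data known. Named genes were every member past the threshold (1 of these is not reported here), the 5 with highest input, members of the pluripotency, germline and 2-cell lists, the highest and lowest of a described group, and those next to the limit of 0.4. Kcnj13, Dcx, Cyp7a1 and Clk4 were named after their values were seen. Alternatives were other windows, CpG limits, input minima, scalings and flanks, all fragments as deposited, the most upstream TSS, and each replicate left out. Tests used scipy 1.17.1, fragment recovery numba 0.67.0 with numpy 2.4.6, tables pandas 2.3.3 and plots matplotlib 3.10.9, under Python 3.11.15.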

Additional observations from a re-analysis of the deposited data

How the results depend on the processing

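No paired analysis was possible because the replicate files of an antibody hold the same fragments and the input has 1 file. The CpG-poor class stayed below CpG-rich promoters, and below its own flanks, under each alternative run for these comparisons. The GC-scaled expectation was not run for the flanks, and in the main setting members under 38% GC stood above theirs. The summed ratio to the input reversed only with the GC-scaled expectation, chosen after seeing the data, to 1.0 (Santa Cruz) and 1.01 (Abcam), where the median depth ratios in Santa Cruz files 1 and 2 and Abcam files 1 and 2 were 0.959, 0.966, 0.981 and 0.982. In the same order the medians were 0.766, 0.774, 0.807 and 0.804 within 1 kb of the TSS, 0.902, 0.905, 0.914 and 0.915 within 5 kb, 0.877, 0.878, 0.893 and 0.885 when scaled by the median of 10 kb windows, and 0.803, 0.813, 0.838 and 0.841 with at least 40 input fragments. With no minimum they were 0.869 (Santa Cruz 1), 0.895 (Abcam 1) and 0.882 (Abcam 2).

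Counts of members past the threshold were small and moved with several choices. They moved less with at least 40 input fragments (4 with Santa Cruz, 4 with Abcam) and with the most upstream TSS (5 and 7). Scaled by the median of 10 kb windows they were 6 and 9. For Santa Cruz and Abcam they were 9 and 17 within 5 kb, 3 and 3 at a CpG limit of 0.3, 8 and 13 at 0.5, and 11 and 20 GC-scaled. Santa Cruz had 3 within 1 kb and 3 with CpG content from 250 bp on each side, and Abcam had 10 with no minimum. With all fragments as deposited they were 37 and 50, since fragments shared by the files are then counted in each. With either file of the antibody left out the counts were 5 to 6 and 4 to 6, from files that hold largely the same fragments. Within 5 kb, Prr19 and Gpat2 lost their calls with both antibodies, Hoga1 (1.76, adjusted p = 0.0551 by the exact binomial test) and Rad21l (2.23, 0.0651) with Abcam, and Gm17266 (1.63, 0.838) with Santa Cruz. Calls kept there were Rad21l with Santa Cruz (2.53, adjusted p = 0.0409 by the exact binomial test), and Krtap4-1 (2.55, 0.0093) and 4930415F15Rik (2.31, 0.032) with Abcam. Within 5 kb 4930415F15Rik also passed with Santa Cruz (2.65, adjusted p = 0.0166 by the exact binomial test). Within 1 kb, Gm17266 lost its call (2.63), and Rad21l, Krtap4-1 and 4930415F15Rik held fewer than 20 input fragments and gave no value. The members at 2-fold in all 4 files numbered 14 within 1 kb, 3 with at least 40 input fragments and 120 with no minimum. A median of 5 Santa Cruz and 6 Abcam fragments limits what can be seen at a single promoter. The cause of the other changes was not tested.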
